A study of Mus musculus with 18 samples.

Results

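Fertilization and egg activation depend on a short chain of egg proteins, and the mRNAs of 9 of them are described here in single mouse oocytes. The members were taken by gene symbol and were Izumo1r, Cd9, Astl, Itpr1, Trpm7, Cacna1h, Orai1, Stim1 and Camk2g, 9 of the 47069 genes in each deposited table. The rule used symbols and no measured value. All 9 were found, and 8 of them were among the 12161 genes that passed a filter on low counts. Stim1 did not pass it.

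In the mouse, the sperm protein IZUMO1 binds JUNO, the egg surface protein encoded by Izumo1r, and the tetraspanin CD9 organises the egg membrane for fusion. Sperm phospholipase C zeta then sets off repeated calcium release through the type 1 inositol trisphosphate receptor, Itpr1, and the stores are refilled by calcium entry, to which the channels TRPM7 and CaV3.2 (Cacna1h) are known to contribute and for which ORAI1 and STIM1 form the store-operated pathway of many cells. The calcium signal acts through calcium/calmodulin-dependent kinase II gamma (Camk2g) to end the arrest at metaphase II and empties the cortical granules, whose protease ovastacin (Astl) cleaves the zona protein ZP2 and blocks further sperm.

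The oocytes came from C57BL/6JAusb mice and were collected at the germinal vesicle stage (GV, fully grown and arrested in prophase) or at metaphase II (MII, the ovulated, fertilizable stage). Young controls were 4 weeks old. Aged controls were 12 months old, and neither control had anything added to the water. Aged treated mice, also 12 months old, had nicotinamide mononucleotide (NMN, a precursor of NAD) at 2 g/L in their water over 4 weeks. All groups were of this 1 strain. Each library was 1 oocyte, of which the nucleus was spun down after mild lysis and only the supernatant was used. An MII oocyte holds no nucleus, so the fraction sampled may not be the same at both stages.

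Of 18 libraries, 16 oocytes were used, with 2 in GV young control, 2 in GV aged control and 3 in each of the other 4 groups. A pair of GV young control libraries held identical values and was counted as 1 oocyte, and 1 GV aged control library with 5009 counts was left out. The others held 2756181 to 5586894 expected counts, so that 3 counts, the limit that a count of 0 allows, correspond to 0.537 to 1.09 CPM (the counts of a gene relative to the library total). The MII aged NMN oocytes stood apart with 5640 to 7704 detected genes, against 8515 to 13756 in the other 13. Which mouse gave which oocyte is not stated. Each group therefore counts as 1 sample, the SDs below are between oocytes, and no test was made. The titles mark some oocytes as batch 2, the others are called batch 1 here, and values within each batch are given beside the pooled ones. Batch is uncertain for 2 libraries. The merged GV young library has a title in each batch and is counted in batch 1, although its share of fractional counts (14.5%) lies in the range of batch 2, and 1 MII aged NMN oocyte counted in batch 1 has a title that can also be read as batch 2.

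Levels within a gene are in CPM scaled by the trimmed mean of M values (TMM), and levels between genes in the deposited TPM (transcript abundance), which are per length. A gene is called separated between groups where the ratio of the group means, with 1 CPM added to each, was at least 2-fold, where no oocyte of one group reached the range of the other, and where the higher group had at least 10 CPM. Folds are plain ratios of group means. Counts of members are out of the 8 that passed the filter. The share of all 12161 genes that met this rule is given beside each such count in the comparisons below. It was not computed under the other settings tried at the end. Age, NMN and stage comparisons share groups, so a value in one is not independent of the next.

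The oocytes carried their own markers, with 10 of 10 oocyte genes (such as Gdf9, Bmp15 and the zona genes) counted and summed levels of 6756 to 20901 CPM at GV and of 2198 to 26659 CPM at MII. The lowest sums were in MII aged NMN, at 2198 to 7108 CPM. For the somatic follicle cells, cumulus and granulosa, 12 of 14 markers were counted, at sums from 9.61 to 99.9 CPM (GV) and from 0 to 328 CPM (MII), with Amh and Foxl2 at 0. For immune cells 6 of 11 were counted, at sums from 8.87 to 241 CPM (GV) and from 0 to 42.9 CPM (MII), with Ptprc, C1qa, Adgre1, Cd74 and Cd3e at 0. Sums were 0 to 61.8 CPM for endothelial, 0 to 15.9 CPM for theca and stroma and 0 to 29.8 CPM for erythroid markers. Sperm markers reached 37.8 CPM (GV) and 4.36 CPM (MII), with Plcz1, Izumo1 and 4 others of 8 at 0. No member is on any of these lists.

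The 4 members with the highest mean TPM over all 16 oocytes were Cd9, Izumo1r, Astl and Camk2g, and the 30 bases that end in their polyadenylation signal are shown because these mRNAs parted between the stages in aged controls, the first pair lower at MII and the second pair not. The windows are from GENCODE vM21 transcripts on GRCm38, written 5′ to 3′ on the transcript strand with the signal in capitals. They lie at chr6:125460280-125460309 (minus strand) for Cd9, chr9:14900039-14900068 (minus strand) for Izumo1r, chr2:127357604-127357633 (plus strand) for Astl and chr14:20734892-20734921 (minus strand) for Camk2g, at the 3′ ends of the transcripts.
Cd9: tatattgaagacaatttgatacatAATAAA
Izumo1r: gacatgtcctatcatggtaccttcAATAAA
Astl: gcacttcatgtgggaaaaggtagaAATAAA
Camk2g: tacaatgaaaccttgaagatatttAATAAA

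All 9 members had AATAAA or ATTAAA within the last 60 bases of the transcript examined, as did 72.3% of 21831 protein-coding genes at 1 transcript each. ATTAAA was the signal of Trpm7 and Orai1 and AATAAA that of the other 7. Cytoplasmic polyadenylation elements, which as background mark stored oocyte mRNAs for tail growth during maturation, were searched as TTTTAT and TTTTAAT on the transcript strand in the 120 bases before the signal. None of the 9 members held either, against 18.2% of the transcripts with a signal. That says only that these letters are not in these windows.

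Over all 16 oocytes the genes of sperm and egg contact had the highest mean TPM of the 9, with Cd9 at 79.8 ± 67.8 and Izumo1r at 79.2 ± 109 TPM (SD). At GV the means were 112 TPM for Cd9 and 157 TPM for Izumo1r, against 29.2 TPM for Astl and 18.8 TPM for Camk2g. That gap came from the aged oocytes. In GV young control the means were 31.9 TPM for Izumo1r, 27.5 for Astl, 22.6 for Cd9 and 20.9 for Camk2g. At MII Astl was the highest at 61.1 TPM, followed by Cd9 at 54.5, Camk2g at 40.3 and Izumo1r at 18.5 TPM. Cd9 was counted in 16 of 16 oocytes and Izumo1r in 15. Their nearest relatives were low or at 0: Cd81, the other tetraspanin with a known part in fusion, averaged 1.82 TPM and was below Cd9 in 16 of 16 oocytes, Cd82 and the folate receptor gene Folr1 were at 0 throughout, and Folr2 had 4 counts in 1 oocyte. The annotated gene of Izumo1r spans chr9:14885814-14903949 (minus strand) and that of Cd9 chr6:125460266-125494791 (minus strand). TPM rests on an effective length that the deposited tables varied by up to 1.90-fold between oocytes for Izumo1r and 1.74-fold for Cd9.

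Izumo1r was at 24.7 CPM in the batch 1 and 33.9 CPM in the batch 2 oocyte of GV young control. In GV aged control it was at 233 and 59.9 CPM, and in GV aged NMN at 287 and 218 CPM in batch 1 and 77.3 CPM in batch 2. All 5 aged GV oocytes lay above both young ones, and within each aged group the batch 1 oocytes were the higher. In MII oocytes Izumo1r was at 16.5, 30.5 and 6.61 CPM in young controls, 15.0, 3.25 and 24.3 CPM in aged controls and 3.16, 0 and 26.9 CPM in aged NMN, with batch 2 given last. The 3 MII groups overlapped. In order, the group means were 194 ± 107 (GV aged NMN, n = 3), 146 ± 122 (GV aged control, n = 2), 29.3 ± 6.50 (GV young control, n = 2), 17.9 ± 12.0 (MII young control, n = 3), 14.2 ± 10.6 (MII aged control, n = 3) and 10.005 ± 14.7 CPM (MII aged NMN, n = 3). In that order GV aged control did not overlap GV young control, although the difference of their means was smaller than the SD of the aged pair, and every other pair of neighbours overlapped.

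Cd9 followed a like order in GV oocytes. With batch 2 given last, the young controls had 41.2 and 12.3 CPM, the aged controls 161 and 115 CPM, and the aged NMN oocytes 265, 166 and 51.1 CPM. Every aged GV oocyte was above both young ones. In MII oocytes it was at 116, 19.8 and 15.1 CPM in young controls, 57.2, 27.3 and 33.0 CPM in aged controls and 94.4, 14.3 and 16.6 CPM in aged NMN. In the MII young control and MII aged NMN groups 1 batch 1 oocyte was far above the other two.

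**Figure D1:**
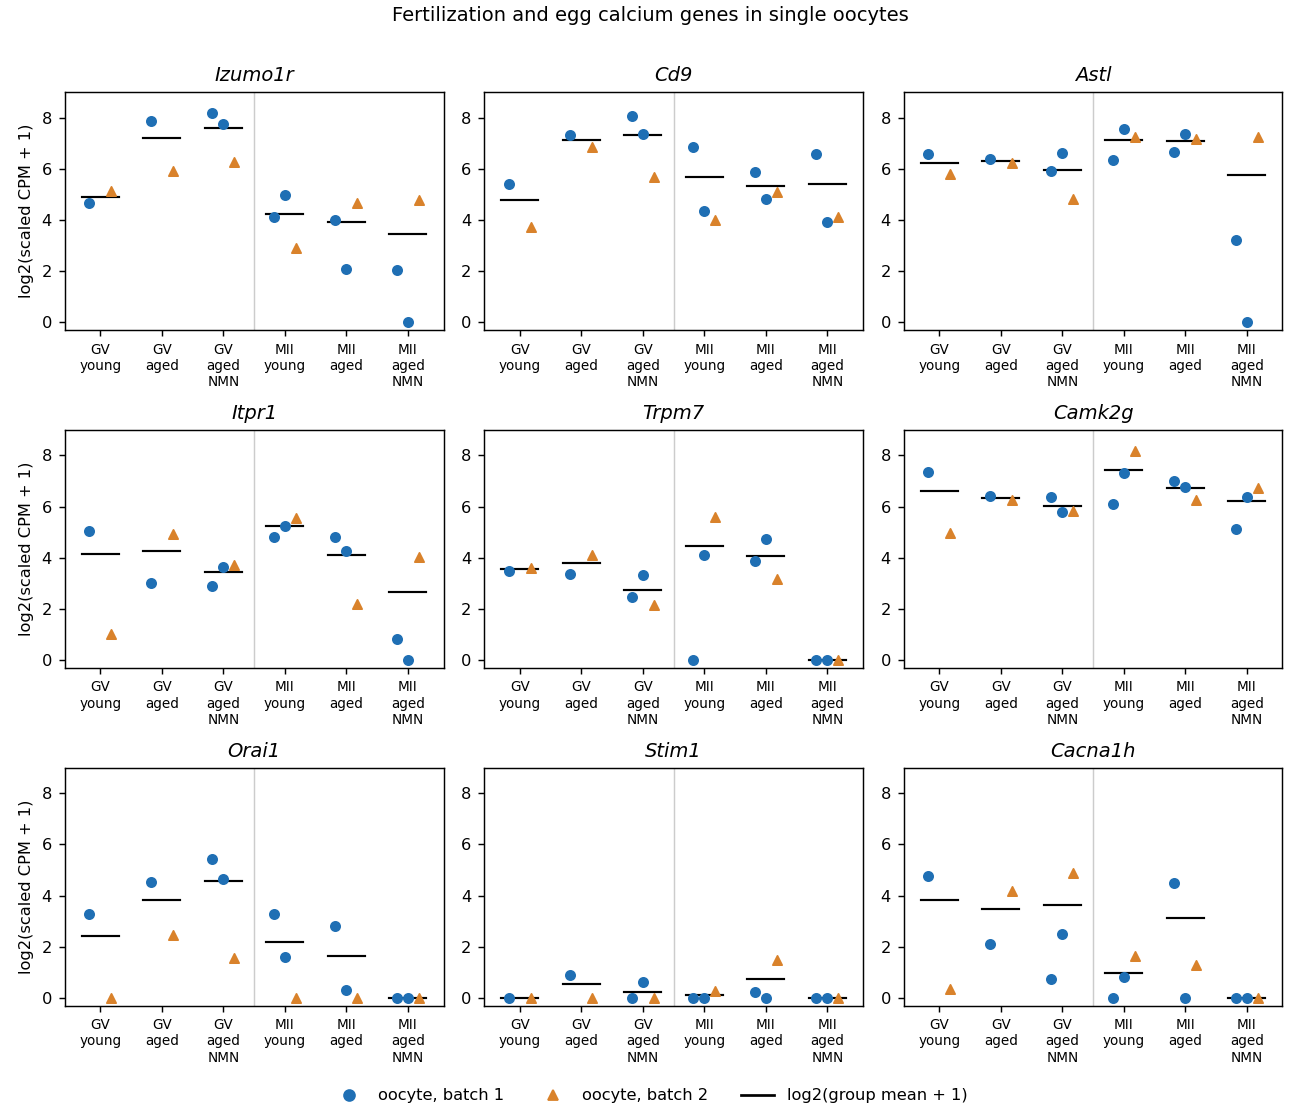
Each panel plots 1 member as log2(TMM-scaled CPM + 1), on the vertical axis, in each of the 16 oocytes by group, with circles for batch 1, triangles for batch 2 and a bar at the log2 of the group mean plus 1. Izumo1r and Cd9 are high in aged GV oocytes, the points of Trpm7, Orai1 and Cacna1h in MII aged NMN all lie at 0, and Stim1 lies near 0 throughout.

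Age in GV oocytes was compared between aged and young controls. Izumo1r and Cd9 were higher in aged GV oocytes and the other 7 members were not separated. Izumo1r was at 146 ± 122 against 29.3 ± 6.50 CPM, 4.99-fold higher (log2 ratio 2.28). Cd9 was at 138 ± 32.5 against 26.7 ± 20.5 CPM, 5.16-fold higher (log2 ratio 2.32). Pooled counts gave 180 CPM (95% Poisson interval 171 to 189, unscaled, counting error only) against 28.6 (25.0 to 32.6) for Izumo1r, so counting error is small beside the spread between oocytes. So 2 of 8 members were separated as higher and 0 as lower, against 9.09% and 4.72% of all genes (13.8% in either direction).

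The Izumo1r difference was 9.42-fold in batch 1 and 1.77-fold in batch 2, where it no longer met the rule. With the merged young library put in batch 2 instead, the batch 2 difference was 2.04-fold and met it, and batch 1 had no young oocyte to compare. Over both batches it was 2.04-fold without the batch 1 aged oocyte and 7.94-fold without the batch 2 one. The Cd9 difference was 3.90-fold in batch 1, 9.37-fold in batch 2, 4.30-fold in batch 2 with the merged library there, 11.2-fold without the batch 1 young oocyte and 3.35-fold without the batch 2 one. Immune markers also summed higher in the aged controls, at 14.2 and 241 CPM against 8.87 and 9.27 CPM in the young, while cumulus and granulosa markers did not, at 22.8 and 26.8 against 27.5 and 59.2 CPM. Of the 11 immune markers 6 were counted and 5 were at 0, and the part of other cells in the result was not tested. Fewer mRNA molecules per oocyte and a lower share of the library cannot be told apart for any gene here.

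The remaining members at GV differed little with age or varied too much between the oocytes to separate. Astl was at 94.0 and 55.3 CPM in young and 82.1 and 73.7 CPM in aged controls. Camk2g was at 165 and 30.3 against 85.4 and 76.1 CPM. Both aged values of each gene lay within the range of the young pair. Orai1 was at 8.75 and 0 against 22.1 and 4.42 CPM, 3.03-fold higher on average but with overlap. Itpr1, Trpm7 and Cacna1h had log2 ratios of 0.12, 0.24 and -0.36.

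In MII oocytes no member was separated between aged and young controls, against 1.27% of genes higher and 3.19% lower (4.47% in either direction). The largest differences were Cacna1h, 8.12-fold higher in aged controls on the level of 1 of 3 oocytes, and Itpr1, 2.23-fold lower. Itpr1 was at 26.8, 37.2 and 45.9 CPM in young controls and at 27.5, 18.3 and 3.63 CPM in aged controls. Only 1 aged oocyte reached the young range. Izumo1r, Cd9 and Astl had log2 ratios of -0.31, -0.35 and -0.05, and that of Camk2g was -0.70. Izumo1r and Cd9 were thus separated with age at GV and not at MII, and the difference between the stages was itself not tested.

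Maturation was compared as MII over GV oocytes within each condition. Izumo1r was lower at MII than at GV in all 3 conditions, but was separated only in the aged ones. In young oocytes it was at 17.9 ± 12.0 against 29.3 ± 6.50 CPM (1.64-fold lower, with overlap). In aged controls it was at 14.2 ± 10.6 against 146 ± 122 CPM, 10.3-fold lower (log2 ratio -3.28), and in aged NMN at 10.005 ± 14.7 against 194 ± 107 CPM, 19.4-fold lower (log2 ratio -4.15). These 2 results share no oocytes. The fold in aged controls was 25.6 in batch 1 and 2.46 in batch 2, and it was 4.22 without the batch 1 GV oocyte, 16.4 without the batch 2 GV oocyte and 16.1 without the batch 2 MII oocyte. In aged NMN it was 160 in batch 1 and 2.88 in batch 2, or 80.0 and 5.75 with the doubtful title read as batch 2. It was 123 without the batch 2 MII oocyte, and 7.23 with both batch 1 MII oocytes left out.

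In young oocytes Cd9 had a higher mean at MII than at GV, at 50.2 ± 56.9 against 26.7 ± 20.5 CPM (1.88-fold, with overlap). That mean rested on 1 of 3 MII oocytes, at 116 CPM, and the MII median was 19.8 CPM against 26.7 CPM at GV. In aged oocytes Cd9 was lower at MII. In aged controls it was at 39.2 ± 15.9 against 138 ± 32.5 CPM, 3.52-fold lower (log2 ratio -1.79), and 3.81-fold and 3.48-fold lower within batches 1 and 2. In aged NMN it was at 41.7 ± 45.6 against 161 ± 107 CPM, 3.85-fold lower, and the groups overlapped through 1 MII oocyte at 94.4 CPM. Without the batch 1 oocytes of MII aged NMN it was 9.71-fold lower. That value sets GV oocytes of both batches against the batch 2 MII oocyte. In batch 2 alone Cd9 was at 16.6 CPM at MII against 51.1 CPM at GV. In batch 1 it was at 94.4 and 14.3 CPM against 265 and 166 CPM, the oocyte at 14.3 CPM having the doubtful title.

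By the same rule 0 of 8 members were separated in young oocytes, against 12.1% of genes higher and 13.3% lower at MII (25.4% in either direction). In aged controls 0 were higher and 2 lower (Izumo1r and Cd9), against 7.29% and 17.2% (24.5%). In aged NMN 0 were higher and 3 lower (Izumo1r, Orai1 and Cacna1h), against 3.23% and 18.1% (21.3%). These counts are near the shares of all genes, so no more than the genes' own values is read from them.

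**Figure D2:**
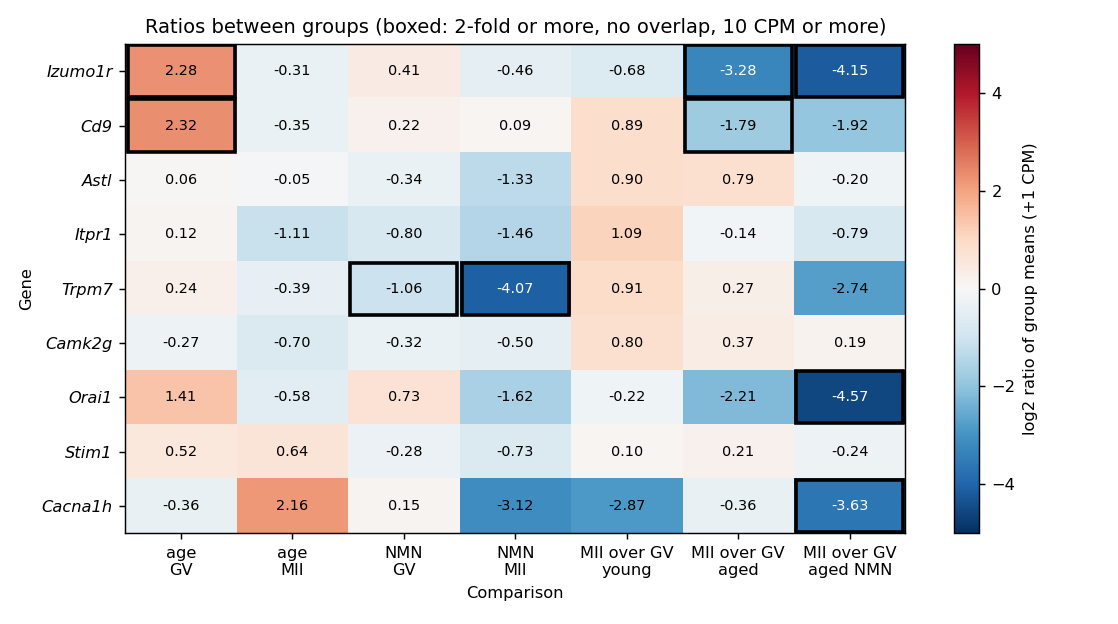
The map gives the log2 ratio of group means, with 1 CPM added, for each member (down) and comparison (across), red where the first group is higher and blue where it is lower, and boxes mark the separated ones. Boxes lie on Izumo1r and Cd9 for age at GV (2.28 and 2.32) and for maturation in aged controls (-3.28 and -1.79), and the values against MII aged NMN for Trpm7 (-4.07), Orai1 (-4.57) and Cacna1h (-3.63) are set by the added 1 CPM, since these genes had no count there.

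Astl, the cortical granule protease (chr2:127338639-127357651, plus strand), had a higher mean at MII than at GV in both control conditions. There the mean of Izumo1r was lower at MII. That of Cd9 was lower in aged oocytes and, through 1 oocyte, higher in young ones. Astl averaged 47.1 ± 38.9 TPM, and its related meprin genes were at 0 (Mep1a) and 1.38 TPM (Mep1b). In GV oocytes Astl was at 27.3 to 97.4 CPM with a median of 73.7 CPM. In MII oocytes it was at 80.1, 186 and 153 CPM in young controls, and at 99.1, 163 and 142 CPM in aged controls. In aged controls every MII oocyte was above both GV oocytes, at 135 ± 32.8 against 77.9 ± 5.95 CPM, but the ratio of 1.73 fell short of 2-fold. In young controls it was 1.87-fold higher with overlap.

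The MII aged NMN oocytes disagreed about Astl. It was at 8.29 and 0 CPM in the batch 1 oocytes and at 151 CPM in the batch 2 oocyte, for a mean of 53.2 ± 85.1 CPM. Against GV aged NMN it was therefore 18.9-fold lower in batch 1 and 5.55-fold higher in batch 2, and the pooled ratio of 1.15-fold lower describes neither. The oocyte at 0 is the one with the doubtful title, and with it in batch 2 the values were 9.43-fold lower and 2.77-fold higher.

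Itpr1, the calcium release channel (chr6:108213096-108551109, plus strand), was present at 3.03 ± 3.84 TPM, and Itpr2 was well above it, at 118 ± 90.0 TPM. Itpr2 was the higher of the pair in 16 of 16 oocytes, by a median of 55.6-fold in TPM and by 12.5-fold to 975-fold over the 15 oocytes in which Itpr1 was counted. Itpr3 averaged 0.0606 TPM. The effective length used for TPM varied between oocytes by up to 3.64-fold for Itpr1 and 3.03-fold for Itpr2, which is less than the smallest of these ratios.

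At GV, Itpr1 had 32.2 and 1.04 CPM in the young controls, 7.19 and 29.2 CPM in the aged controls and 6.40, 11.4 and 12.3 CPM with NMN. The pairs of GV control oocytes thus differed more from each other than the groups did. In MII aged NMN it was at 0.790 and 0 CPM in batch 1 and 15.3 CPM in batch 2. It was 2.20-fold higher at MII than at GV in young controls, with overlap, and 1.11-fold and 1.87-fold lower in aged controls and aged NMN. Itpr2 was at 465 ± 254 CPM (GV) and 668 ± 254 CPM (MII) in young controls and at 336 ± 184 CPM and 984 ± 718 CPM in aged controls, where it was separated and 2.93-fold higher at MII.

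**Figure D3:**
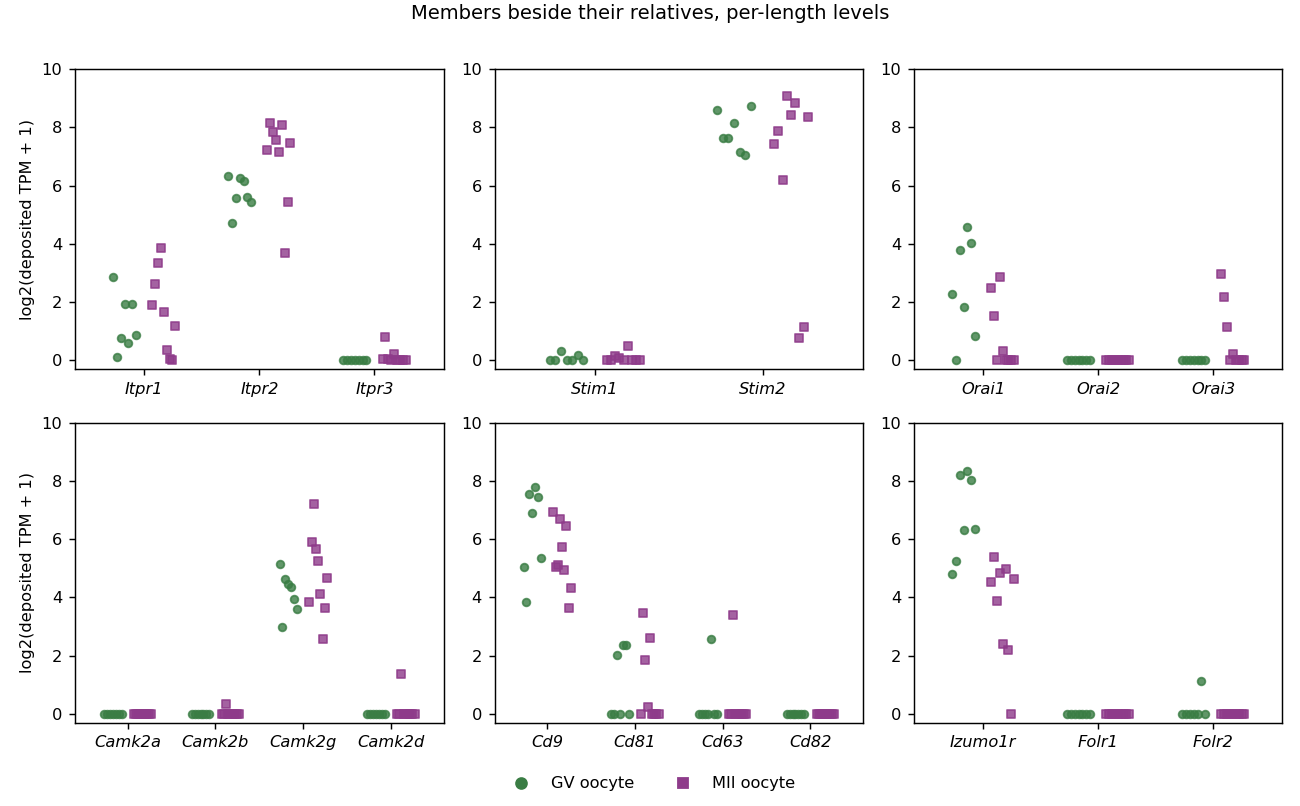
Each panel plots log2(deposited TPM + 1), per length, on the vertical axis for a member and its relatives in the 7 GV oocytes (circles) and 9 MII oocytes (squares). Itpr2 lies above Itpr1 and Stim2 above Stim1 in every oocyte, whereas Camk2g, Cd9 and Izumo1r lie above their relatives, most of which are at 0.

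Among the 4 members of calcium entry, Trpm7 (chr2:126791565-126876230, minus strand), a channel fused to a kinase, had the highest mean over all oocytes, 7.31 ± 10.5 TPM. At GV Orai1 had a higher mean than Trpm7, 8.33 against 6.05 TPM, but was the higher only in the aged oocytes of batch 1. In GV young control Orai1 averaged 1.91 against 15.8 TPM. At MII the mean of Orai1 was the lower, at 1.44 against 8.29 TPM. The TPM of Trpm7 is the least certain of the 9, because the effective length used for it varied by up to 13.2-fold between oocytes. At GV it had 10.3 and 11.2 CPM in the young controls, 9.29 and 16.5 CPM in the aged controls, and 4.57, 8.96 and 3.46 CPM with NMN. The GV aged NMN oocytes were all below the other 4. In MII young control it ran from 0 to 46.7 CPM, in MII aged control it was at 13.6, 25.8 and 7.99 CPM, and none of the 3 MII aged NMN oocytes had a count.

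The NMN comparisons set aged NMN against aged controls. At GV, 1 of 8 members was separated, Trpm7, which was lower at 5.66 ± 2.91 (n = 3) against 12.9 ± 5.06 CPM (n = 2), a 2.27-fold difference (log2 ratio -1.06). All genes gave 2.39% lower and 1.25% higher (3.64% in either direction). The difference was 1.37-fold in batch 1 and 4.75-fold in batch 2, and it no longer met the rule without any 1 of 3 oocytes: 2.07-fold without 1 batch 1 NMN oocyte, 1.90-fold without the batch 2 NMN oocyte and 1.64-fold without the batch 2 aged control. Izumo1r, Cd9 and Orai1 were 1.33-fold, 1.17-fold and 1.71-fold higher with NMN, and Astl, Itpr1 and Camk2g 1.27-fold, 1.81-fold and 1.25-fold lower, each with overlap.

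At MII, Trpm7 was again the 1 member separated with NMN, with 0 counts in 3 oocytes against 15.8 ± 9.09 CPM in aged controls. Taking 3 counts over the group as the limit, 0.335 CPM, it was at least 47.1-fold lower. In batch 2 the aged control had 7.99 CPM, under the 10 CPM of the rule, and in batch 1 the aged controls averaged 19.7 CPM. All genes gave 6.99% lower and 1.23% higher (8.22% in either direction). Orai1 and Cacna1h also had 0 counts in MII aged NMN, but aged controls ran from 0 CPM themselves, to 5.98 CPM for Orai1 and 21.6 CPM for Cacna1h. Astl was 2.53-fold, Itpr1 3.07-fold and Izumo1r 1.42-fold lower with NMN, with overlap, and Cd9 and Camk2g had log2 ratios of 0.09 and -0.50.

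These MII values went with the low number of detected genes in that group, and its part in them was not tested. In batch 1, where the NMN oocytes had 6400 and 5640 detected genes, Astl was 31.6-fold and Itpr1 57.9-fold lower with NMN. In batch 2, with 7704 genes against 8515 in the aged control, Astl was 1.06-fold and Itpr1 4.21-fold higher. With the oocyte of the doubtful title in batch 2, Astl was 15.8-fold lower in batch 1 and 1.88-fold lower in batch 2, and Itpr1 28.9-fold lower in batch 1 and 2.11-fold higher in batch 2. With both batch 1 NMN oocytes left out, Astl and Itpr1 were 1.12-fold higher and 1.07-fold lower, and Camk2g 1.01-fold higher. Trpm7 had no count in the remaining oocyte either.

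Cacna1h, the T-type calcium channel CaV3.2 (chr17:25374285-25433783, minus strand), was at 0.749 ± 1.14 TPM. It was counted in 7 of 7 GV oocytes and in 4 of 9 MII oocytes. In GV oocytes it was at 26.3 and 0.261 CPM in young controls, 3.33 and 16.9 CPM in aged controls and 0.686, 4.61 and 28.8 CPM in aged NMN, so each group held 1 high oocyte. At MII 1 aged control oocyte was at 21.6 CPM and the other 8 were at 0 to 2.07 CPM. Against the 3-count limit it was at least 34.0-fold lower at MII in aged NMN, but without the batch 2 GV oocyte it no longer met the rule, since GV aged NMN then averaged 2.65 CPM. Its relatives Cacna1g and Cacna1i had 1 and 39 counts in all.

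Orai1 (chr5:123015074-123030456, plus strand), the pore of the store-operated channel, was at 4.46 ± 6.79 TPM and was counted in 6 of 7 GV and 4 of 9 MII oocytes. It was highest in GV aged NMN, at 42.1 and 24.2 CPM in batch 1 and 1.92 CPM in batch 2. Every batch 1 GV oocyte was above every batch 2 GV oocyte, with 8.75 CPM the lowest of the former and 4.42 CPM the highest of the latter. At MII it was at 0 to 8.79 CPM, and against the 3-count limit it was at least 67.8-fold lower at MII than at GV in aged NMN. In batch 2 the GV level was 1.92 CPM, too low to meet the rule. It shares 7 exon bases with Gm2479, an antisense gene that held 2394 counts against 546 for Orai1, and the strand setting of the counting is not given in the sources used here.

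Stim1 (chr7:102267806-102437319, plus strand), the sensor that opens ORAI1 when stores empty, had 14 counts in all, in 5 of 16 oocytes, and no ratio is read for it. Its relative Stim2 averaged 245 ± 160 TPM and was above Stim1 in 16 of 16 oocytes. Stim2 was at 79.8 to 248 CPM in GV oocytes. In MII aged NMN it was at 0.395 and 0.931 CPM in batch 1 and at 236 CPM in batch 2. In MII aged controls it was at 298 ± 131 CPM against 127 ± 17.1 CPM at GV, and separated. Orai2 was at 0 throughout and Orai3 was counted in 4 MII oocytes, 3 of them young controls.

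Camk2g (chr14:20734875-20794088, minus strand), the kinase that carries the calcium signal, was counted in 16 of 16 oocytes at 30.9 ± 34.4 TPM. It was the single kinase II gene of any level: Camk2a was at 0, Camk2b had 1 count and Camk2d had 10 counts in 1 oocyte. Mean levels at GV were 97.5 ± 95.1 CPM (young), 80.8 ± 6.57 CPM (aged) and 64.7 ± 16.1 CPM (aged NMN), and at MII 171 ± 111, 104 ± 26.8 and 73.7 ± 36.7 CPM in the same order. In single oocytes it ran from 30.3 to 165 CPM at GV and from 33.6 to 288 CPM at MII, and it was not separated in any of the 7 comparisons. The MII means were 1.75-fold, 1.29-fold and 1.14-fold above those at GV. In the MII aged NMN oocytes that lacked Trpm7 it was at 33.6, 81.9 and 106 CPM.

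The genes whose pattern over the 16 oocytes was most like that of a member were ranked by the mean absolute difference of log2(CPM + 1) after centring each gene, among 5668 genes. For Izumo1r these were Eif2b4, Snupn and Dmac1, at 0.67, 0.70 and 0.72 against a median of 1.91 over genes. For Cd9 they were Noxo1, Oas1h and Tspan33, at 0.53, 0.64 and 0.65, the last also a tetraspanin. For Astl they were Epha4, Lpcat1 and Rpgrip1l (0.35, 0.42 and 0.42), for Itpr1 Pde6b, Scfd2 and Itgb1 (0.49, 0.57 and 0.59), for Trpm7 Hook3, Herc1 and Nktr (0.59, 0.61 and 0.65) and for Camk2g Cep57l1, Cnn3 and Tbc1d15 (0.42, 0.44 and 0.46). Oocytes share library depth and batch across genes, so this is a description.

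Another 64 genes of the same process were read as context, of which 50 passed the filter. They cover the zona and contact, cortical granules, calcium stores and pumps, entry, calcium effectors, MII arrest, zinc transport, and phospholipases and Src kinases. With age at GV 6 were separated as higher and 0 as lower (median log2 ratio 0.42, against 0.29 over all genes, of which 9.09% and 4.72% were separated): Zp1, Zp3, Plk1, Cdk1, Fzr1 and Fyn. The Src kinase gene Fyn was at 50.8 ± 13.8 against 1.67 ± 2.37 CPM. With age at MII 1 was lower, Padi6, a protein of the cytoplasmic lattices of the oocyte, at 83.8 ± 27.3 against 187 ± 11.2 CPM (median -0.44, against -0.27, with 3.19% of all genes lower).

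At maturation, Zp2 and Zp3 of the zona were separated as lower at MII in all 3 conditions, and Zp1 in the aged ones. In young oocytes 8 of the 50 were higher and 7 lower at MII (median 0.66, against 0.35), where 12.1% and 13.3% of all genes were. Mos, the kinase that maintains MII arrest, was 8.80-fold higher at 905 ± 925 against 103 ± 1.70 CPM, and Cdk1 7.58-fold lower at 8.30 ± 11.7 against 62.9 ± 14.1 CPM. Fyn was at 116 ± 38.2 against 1.67 ± 2.37 CPM, and the cytoskeletal gene Actn4 at 61.1 ± 36.1 against 4.51 ± 6.37 CPM. Zp2 and the calmodulin gene Calm2 were 15.6-fold and 9.88-fold lower.

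In aged controls 8 were higher and 8 lower at MII (median 0.00, against -0.29), where 7.29% and 17.2% of all genes were. All 3 zona genes Zp1, Zp2 and Zp3 were lower. The calcium pump gene Atp2b1 was at 555 ± 334 against 126 ± 29.4 CPM. On the lists of calcium stores and of entry, Itpr2, Atp2b1, Calr and Stim2 were separated as higher here. In young oocytes Mcu alone was, and in aged NMN none was, while Hspa5 and Pdia3 were separated as lower. In young oocytes, aged controls and aged NMN the log2 ratios were 1.69, 1.04 and -0.64 for Calr and 1.78, 2.13 and -0.53 for Atp2b1. In the same order they were 0.52, 1.55 and 0.83 for Itpr2, -0.29, 1.22 and -0.85 for Stim2, and 3.12, 1.21 and 1.79 for Mcu. The difference between conditions was not tested. In aged NMN 1 was higher, Fbxo43, which encodes the arrest factor EMI2 that Camk2g targets, at 59.2 ± 25.6 against 27.8 ± 2.77 CPM (log2 ratio 1.06). Fbxo43 was also separated as higher in aged controls, at 50.3 against 21.4 CPM (log2 ratio 1.19). In young oocytes its log2 ratio was 0.83 and it was not separated. Another 13 were lower in aged NMN (median -0.58, against -0.82), where 3.23% of all genes were higher and 18.1% lower. Among those, Zp1 and Zp3 were 237-fold and 255-fold lower.

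With NMN 0 of the 50 were separated at GV (median 0.00, against 0.01), where 3.64% of all genes were. At MII 0 were higher and 8 lower with NMN (median -1.01, against -0.33), where 1.23% and 6.99% of all genes were, among them Zp3, Padi6 and Pdia3. Pdia3, a chaperone of the endoplasmic reticulum, had 0 counts in MII aged NMN against 124 ± 115 CPM in aged controls. Padi6 was at 5.61 ± 5.21 against 83.8 ± 27.3 CPM. This group is the one with few detected genes described above.

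**Figure D4:**
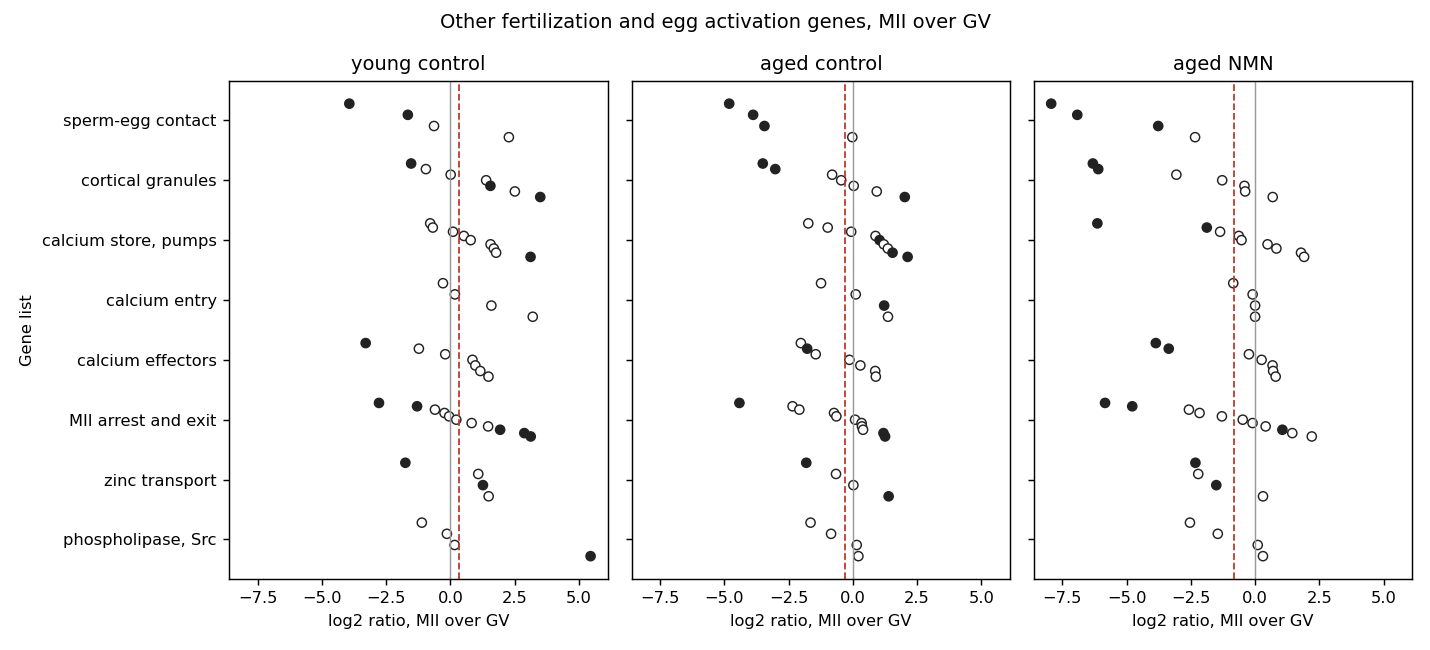
Each point is 1 of the 50 other genes of the process that passed the filter, placed by its log2 ratio of MII over GV (horizontal axis) and by list (vertical axis), in young control, aged control and aged NMN oocytes, and filled where it was separated. The dashed line is the median over all 12161 genes (0.35, -0.29 and -0.82), and the filled points of the contact list, all zona genes, lie to its left in each panel.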

How the data were processed

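Single-oocyte RNA sequencing tables of 18 libraries were used. Per the submitters' processing notes, the tools named, with no order or role, were Trim Galore 0.4.5, FastQC 0.11.8, TopHat2 2.1.1 and Cufflinks, and the builds GRCm38 and mm10. The columns deposited by the authors are those RSEM writes, which the notes leave unnamed. Per the file headers each table holds expected counts, not normalized, and TPM, which the authors scaled by library and by the effective length in the same table. The members and gene lists were chosen with earlier results of these data known.

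Symbols came from GENCODE vM21, which matched 46488 of 47069 identifiers. Expected counts were rounded, low genes were removed with edgeR 4.0.16 (filterByExpr, minimum count 10, by group), and CPM used TMM factors, in R 4.3.3; DESeq2 1.42.0 gave the alternative size factors. Identical libraries were counted once, and the library under 100000 counts was left out. Batch was read from the titles. One MII aged NMN title that says batch 2 without an oocyte number was read as oocyte 2 of batch 1. Fractional counts, those more than 0.005 off an integer, made up 19.5 to 29.0% of detected genes for batch 1 oocytes but 11.9 to 14.6% for batch 2 oocytes. The merged GV young library, counted in batch 1, had 14.5%.

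No test was made, since each library is 1 oocyte and no animals are named. The rule for separated genes was tried on simulated data, with changes larger than several of those reported here. The genes changed there had higher levels than the lowest members, so that trial does not cover small changes or low genes. It used the same spread between oocytes for all genes and no difference between batches. It therefore does not cover the wider spread of some members or the batches. Poisson intervals are exact, at 95%, on pooled unscaled counts. Named genes are the 9 members, their relatives, and up to 3 separated genes of the process lists per comparison and direction with the largest ratio. Other separated genes are named without values, except where their ratios are set side by side across conditions. The 3 most alike patterns of each member averaging 10 CPM or more are also named. Python 3.11.15 with pandas 2.3.3, numpy 2.4.6, scipy 1.17.1 and matplotlib 3.10.9 did the rest. FPKM was not used.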

Additional observations from a re-analysis of the deposited data

How the results depend on the processing

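No paired analysis was possible because no test was made and the labels name no animals shared between groups. Of 147 ratios of separated members recomputed under the alternatives, 147 kept their direction and 125 still met the rule. Separated groups do not overlap, so their direction could not turn where oocytes were dropped or only 1 batch was used. The same holds where medians were taken or another CPM was added. Library totals, median-of-ratios size factors, no filter and 0.5 CPM added kept 9 of 9 separated members, 5 CPM added and medians 8, and mean TPM 6. Members separated, when each oocyte was left out in turn, ranged from 2 to 6 for age at GV, 0 to 3 for age at MII, 0 to 3 for NMN at GV, 1 to 4 for NMN at MII, and 0 to 4, 2 to 4 and 3 to 5 for maturation in young control, aged control and aged NMN. The library left out as small had no count for any member, so with it kept no member can be separated as higher in GV aged control. The counts of members in this section stand without the share of all genes, which was not computed under the alternatives. No result about the members is read from them. For age at GV the number separated was 5 in batch 1, 4 in batch 2 and 0 with the small library kept. For age at MII it was 1 in batch 1 and 5 in batch 2. For NMN at GV it was 0 in batch 1, with TPM, with 5 CPM added and with the small library kept, and 4 in batch 2. For NMN at MII it was 0 with TPM, 4 in batch 1, and 5 there with the doubtful title read as batch 2. For maturation it was 1 in young oocytes with median-of-ratios factors, with TPM and in batch 1, and 5 in batch 2, also with the merged library put there. In aged controls it was 5 in batch 1, 4 in batch 2 and 1 with the small library kept, and in aged NMN 5 in batch 1 with the doubtful title in batch 2. Leaving out both batch 1 oocytes of MII aged NMN, chosen after seeing the data, gave 2 for NMN at MII and 5 for maturation. A single batch leaves 1 or 2 oocytes a side, where the demand of no overlap is easier to meet, and other causes were not tested. With the merged library in batch 2, batch 1 has no young GV oocyte and gives no value. With 2 or 3 oocytes a group, the spread between oocytes limits precision more than depth does.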
